A study of Homo sapiens with 6 samples.

Results

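The protein arginine methyltransferase (PRMT) family was followed in SH-SY5Y cells given SGC707, an inhibitor of one of its members, PRMT3. Its 10 genes were taken by symbol from the deposited count table of 19610 genes: the methyltransferases PRMT1, PRMT2, PRMT3, CARM1 (also called PRMT4), PRMT5, PRMT6, PRMT7, PRMT8 and PRMT9, and WDR77, which encodes the partner subunit of PRMT5. SH-SY5Y is an established human neuroblastoma line, labelled wild type in all 6 libraries, and the table comes from RNA sequencing of bulk cultures. The SGC707 group holds 3 libraries and the DMSO group, given the solvent, holds 3, lettered A, B and C in each. The labels used here give neither dose nor time of exposure, and they do not say whether the letters mark separate cultures. The p-values therefore cover only variation among these 6 libraries, possibly technical. In such bulk RNA, fewer cells of a type and less RNA per cell cannot be told apart.

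Protein arginine methyltransferases move a methyl group from S-adenosylmethionine to arginine side chains of histones, RNA-binding proteins and ribosomal proteins. Type I enzymes (PRMT1, PRMT2, PRMT3, CARM1, PRMT6 and PRMT8) make asymmetric dimethylarginine, type II enzymes (PRMT5 and PRMT9) make symmetric dimethylarginine, and PRMT7, the type III enzyme, makes monomethylarginine. PRMT3 is a mostly cytosolic enzyme whose best known substrate is the ribosomal protein RPS2. SGC707 binds PRMT3 at an allosteric site and blocks its activity, so the mRNA level of PRMT3 is no measure of inhibition and does not check the labels.

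The methyltransferases of the family, but not the partner subunit WDR77, share a glycine-rich loop that holds S-adenosylmethionine, called motif I. Searched in the longest complete coding sequence of each gene as the residues leucine and aspartate followed by 3 glycines at every second position, it was found in 8 of the 10 members, all but PRMT5 and WDR77, and in 0.241% of 19508 genes. The coding stretches around it, from GENCODE release 29 on GRCh38, are shown for 6 members because they write nearly the same residues in codons of different base composition, and because PRMT1 and PRMT8 are the closest pair. Capitals mark the codons of the motif and of the residue before it, and each stretch has 69 bases.
PRMT3: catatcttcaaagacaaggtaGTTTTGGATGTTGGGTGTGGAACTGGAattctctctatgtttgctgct
PRMT1: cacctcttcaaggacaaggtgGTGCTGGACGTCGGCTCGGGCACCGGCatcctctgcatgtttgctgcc
PRMT8: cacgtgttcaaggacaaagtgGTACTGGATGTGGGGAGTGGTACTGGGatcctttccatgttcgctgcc
PRMT6: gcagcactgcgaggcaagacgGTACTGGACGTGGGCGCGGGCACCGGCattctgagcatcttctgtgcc
CARM1: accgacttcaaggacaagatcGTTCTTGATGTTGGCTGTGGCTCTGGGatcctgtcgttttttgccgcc
PRMT9: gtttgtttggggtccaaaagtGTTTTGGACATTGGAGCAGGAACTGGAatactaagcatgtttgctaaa
The PRMT1 stretch lies in exon 4 at chr19:49681970-49682038 and that of PRMT8 in exon 3 at chr12:3549996-3550064, both on the plus strand. That of PRMT6 lies in exon 1 at chr1:107056950-107057018, plus strand. Those of PRMT3 (chr11:20402967-20407961, plus strand, exons 8 and 9), CARM1 (chr19:10909190-10912234, plus strand, exons 4 and 5) and PRMT9 (chr4:147673114-147673693, minus strand, exons 3 and 4) run across an intron that is not part of the printed bases. G and C made up 40.6% of the bases in PRMT3 and in PRMT9, 52.2% in CARM1, 53.6% in PRMT8, 62.3% in PRMT1 and 65.2% in PRMT6. These stretches do not stand for whole transcripts, of which that of CARM1 has 61.9% and that of PRMT6 50.3%. Of the 69 bases, 53 were the same in PRMT8 and PRMT1 and 51 in PRMT3 and PRMT1.

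The whole table sets the frame for these genes. Total counts were 11658728 to 12127187 per library with SGC707 and 11863696 to 15437602 with DMSO, of which mitochondrially encoded genes took 24.3% to 37.7% with SGC707 and 46.7% to 60.7% with DMSO. Counts on nuclear genes were thus 7559322 to 8999358 with SGC707 and 6066305 to 6327895 with DMSO, and levels are given as CPM, counts scaled to a common library size and adjusted between libraries with TMM factors, called normalised CPM. Of 9 adrenergic neuroblastoma markers 8 passed the filter on low counts, with summed levels of 3699.6 to 4314 normalised CPM with SGC707 and 4653 to 5631 with DMSO, while TH, the rate-limiting enzyme of catecholamine synthesis, had 0 counts in every library. Of these 8, 7 had a negative log2 fold change and 1 a positive one, with a median of -0.25. The lowest was GATA3 at -1.14 (edgeR adjusted p = 0.142), with 366, 379 and 369 normalised CPM in SGC707 A, B and C. In DMSO A, B and C it stood at 890, 937 and 627. No marker of Schwann-like, leukocyte or epithelial cells had more than 17 counts in a library, and SOX10, PTPRC and KRT5 were at 0. Their summed levels were 1.25 to 1.93, 0.252 to 0.546 and 0.967 to 1.70 normalised CPM with SGC707 and 1.53 to 3.13, 0.286 to 1.17 and 1.37 to 1.91 with DMSO. The part that the adrenergic marker level plays in the results below was not tested.

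Of the 10 members, 9 passed the filter on low counts and were tested among 12196 genes, and none passed at an adjusted p of 0.05. With edgeR's quasi-likelihood test 0 of 9 members were called, where 0.0246% of all tested genes were (0.0082% higher and 0.0164% lower), and the members' adjusted p ran from 0.277 to 0.988. At an unadjusted p under 0.05 there were 2 members, PRMT6 (higher with SGC707) and CARM1 (lower), in a table where 12.8% of genes were below that level (5.62% higher and 7.13% lower). DESeq2 and limma-voom also called 0 members, where they called 1.89% and 0.0164% of all genes. The log2 fold changes were positive for 6 members and negative for 3, with a median of 0.14, beside a median of 0.02 and 52.8% positive over all tested genes. In 4 members the SGC707 and DMSO libraries did not overlap: PRMT3, PRMT6 and PRMT2 lay higher with SGC707 and CARM1 lower. Such separation was seen in 20.6% of all tested genes, 10.8% higher and 9.78% lower.

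**Figure D1:**
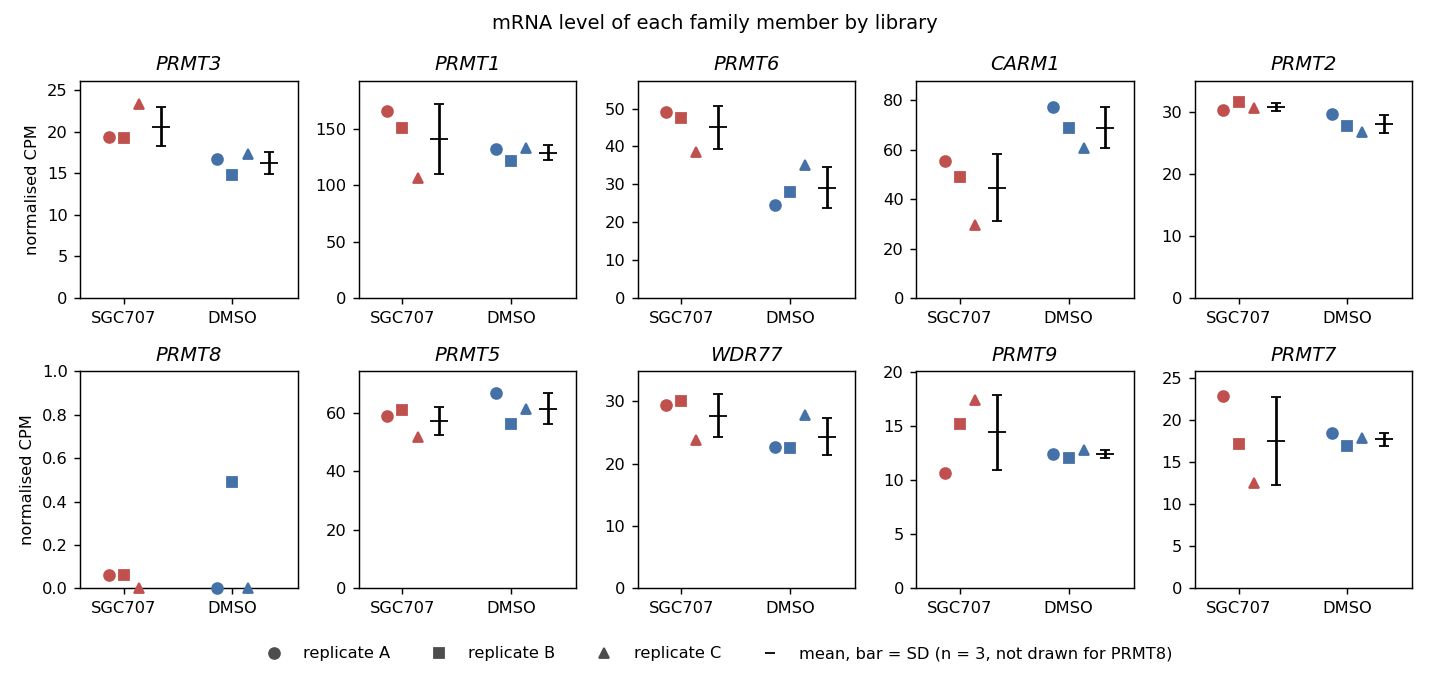
Normalised CPM of the 10 members (vertical axes, each from 0) in the 3 SGC707 libraries (red, left) and the 3 DMSO libraries (blue, right), with the mean and SD beside the points. Of the tested members, PRMT6 and CARM1 show the largest differences between the group means, and PRMT8 reaches at most 0.489 CPM. SGC707 replicate C (red triangle) is the lowest or the highest of the 6 libraries for PRMT3, PRMT1, CARM1, PRMT5, PRMT9 and PRMT7.

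PRMT3 (GRCh38 chromosome 11, 20387530 to 20509294, plus strand), the target of the compound, stood at 19.3, 19.2 and 23.3 normalised CPM in SGC707 A, B and C, against 16.7, 14.8 and 17.3 in the DMSO libraries. All 3 SGC707 libraries lay above all 3 DMSO libraries, with replicate C the highest in each group. The log2 fold change was 0.34 (SE 0.18, 95% interval -0.07 to 0.76, edgeR adjusted p = 0.479), which does not pass. It was 0.24 without SGC707 C. The counts behind these levels were 320, 306 and 299 with SGC707 and 175, 151 and 192 with DMSO.

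PRMT1 (chromosome 19, 49675786 to 49689029), the main source of asymmetric dimethylarginine in most cells, stood at 166, 151 and 107 normalised CPM in SGC707 A, B and C and at 132, 121 and 133 in the DMSO libraries. SGC707 A and B lay above every DMSO library and SGC707 C below every one. Its log2 fold change was 0.13 (95% interval -0.29 to 0.56, edgeR adjusted p = 0.796) on all libraries. It was 0.29 without SGC707 C (edgeR adjusted p = 0.0954) and 0.00132 without SGC707 A (edgeR adjusted p = 0.998).

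PRMT8 (chromosome 12, 3381349 to 3593973), a membrane-anchored enzyme known from brain, was close to undetected. It had 1, 1 and 0 counts in SGC707 A, B and C and 0, 5 and 0 in the DMSO libraries. By counting error alone the 3 libraries without a read could each hide 3 counts, which is 0.229 to 0.253 CPM before TMM scaling. No difference was detectable at this depth, and the gene did not pass the filter. Over 1109 aligned coding bases PRMT8 and PRMT1 were 74.9% identical, with a longest exact shared run of 44 bases. No 75-base window of the longest PRMT8 or PRMT1 transcript was found in transcripts of another gene.

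PRMT6 (chromosome 1, 107056679 to 107067636), a nuclear enzyme that methylates the tail of histone H3, had the highest log2 fold change of the family. It stood at 49.1, 47.5 and 38.6 normalised CPM in SGC707 A, B and C, against 24.4, 27.9 and 35.0 in the DMSO libraries. The groups did not overlap, although SGC707 C and DMSO C came close. The mean was 45.1 ± 5.67 with SGC707 and 29.1 ± 5.41 with DMSO (SD, n = 3 each), a log2 fold change of 0.63 (SE 0.19, 95% interval 0.19 to 1.07). This did not pass over all genes (edgeR adjusted p = 0.277). Without SGC707 C it was 0.73 and passed (edgeR adjusted p = 0.0418), in a fit where 9.26% of all genes were called. In the other fits that left out 1 library the adjusted p was 0.202 to 0.857.

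CARM1 (chromosome 19, 10871513 to 10923070), a coactivator of nuclear receptors that methylates histone H3 and splicing and transcription factors, had the lowest log2 fold change. It stood at 55.4, 49.1 and 29.5 normalised CPM in SGC707 A, B and C, against 77.4, 68.6 and 60.7 in DMSO A, B and C. Every SGC707 library was below every DMSO library, and SGC707 C was far below the other two. The log2 fold change was -0.62 (SE 0.24, 95% interval -1.19 to -0.06, edgeR adjusted p = 0.351) and did not pass. Without SGC707 C it was -0.40 (edgeR adjusted p = 0.0948). Of the 75-base windows of the longest CARM1 transcript, 24.9% also lie in transcripts of YIPF2, which overlaps it on the opposite strand. YIPF2 stood at 3.51 to 6.77 normalised CPM with SGC707 and 5.44 to 9.09 with DMSO, and the labels do not say whether the authors counted reads by strand.

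PRMT2 (chromosome 21, 46635167 to 46665124), a weakly active type I enzyme, was the most even member. It stood at 30.3, 31.5 and 30.6 normalised CPM in SGC707 A, B and C and at 29.6, 27.8 and 26.7 in the DMSO libraries. The groups stood just apart, and the log2 fold change was 0.14 (95% interval -0.21 to 0.48, edgeR adjusted p = 0.736).

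PRMT5 (chromosome 14, 22920511 to 22929585, minus strand) is the main source of symmetric dimethylarginine and works in a complex with WDR77 (chromosome 1, 111439890 to 111449376, minus strand), a WD-repeat protein that holds its substrates. PRMT5 stood at 58.9, 60.9 and 51.8 normalised CPM in SGC707 A, B and C and at 66.6, 56.1 and 61.2 in the DMSO libraries. WDR77 stood at 29.3, 30.0 and 23.8 with SGC707 and at 22.7, 22.5 and 27.7 with DMSO. In both genes the groups overlapped, with log2 fold changes of -0.10 for PRMT5 (95% interval -0.44 to 0.24, edgeR adjusted p = 0.812) and 0.19 for WDR77 (95% interval -0.23 to 0.61, edgeR adjusted p = 0.696). PRMT5 stood at -0.16 when DMSO B was omitted and at -0.04 when SGC707 C was. WDR77 stood at 0.13 when SGC707 B was omitted and at 0.29 when DMSO C was.

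Set against each other within a library, which needs no scaling between libraries, the pair separated. The log2 ratio of PRMT5 to WDR77, each per kilobase of transcript, was 1.03, 1.05 and 1.15 in SGC707 A, B and C, against 1.58, 1.34 and 1.17 in DMSO A, B and C. All SGC707 values were below all DMSO values, although SGC707 C and DMSO C differed by little. The means were 1.08 ± 0.0628 with SGC707 and 1.36 ± 0.205 with DMSO (SD, n = 3 each), a difference of -0.29 (two-sided exact permutation p = 0.1, the lowest this design can give). Without DMSO A the difference was -0.18. Antisense and overlapping transcripts touch both genes: 23.4% of the 75-base windows of PRMT5 also lie in PRMT5-AS1, and 33.9% of those of WDR77 in AL390195.1 or ATP5PB. ATP5PB, a subunit of ATP synthase on the opposite strand to WDR77, stood at 71.2 to 81.7 normalised CPM with SGC707 and 88.4 to 98.3 with DMSO.

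PRMT9 (chromosome 4, 147637785 to 147684230, minus strand), which methylates the splicing factor SF3B2, stood at 10.6, 15.2 and 17.4 normalised CPM in SGC707 A, B and C and at 12.4, 12.0 and 12.8 in the DMSO libraries. PRMT7 (chromosome 16, 68310974 to 68358563) stood at 22.9, 17.1 and 12.5 with SGC707 and at 18.4, 16.9 and 17.8 with DMSO. In both genes the DMSO libraries lay close together and the SGC707 libraries spread around them, in opposite orders. The log2 fold changes were 0.21 for PRMT9 (95% interval -0.31 to 0.74, edgeR adjusted p = 0.727) and -0.01 for PRMT7 (95% interval -0.57 to 0.54, edgeR adjusted p = 0.988). That of PRMT9 was 0.055 without SGC707 C and 0.40 without SGC707 A. That of PRMT7 was 0.17 without SGC707 C, 0.01 without DMSO A and 0.00307 without SGC707 B. PRMT7 shares 3.72% of its 75-base windows with SMPD3 on the opposite strand.

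**Figure D2:**
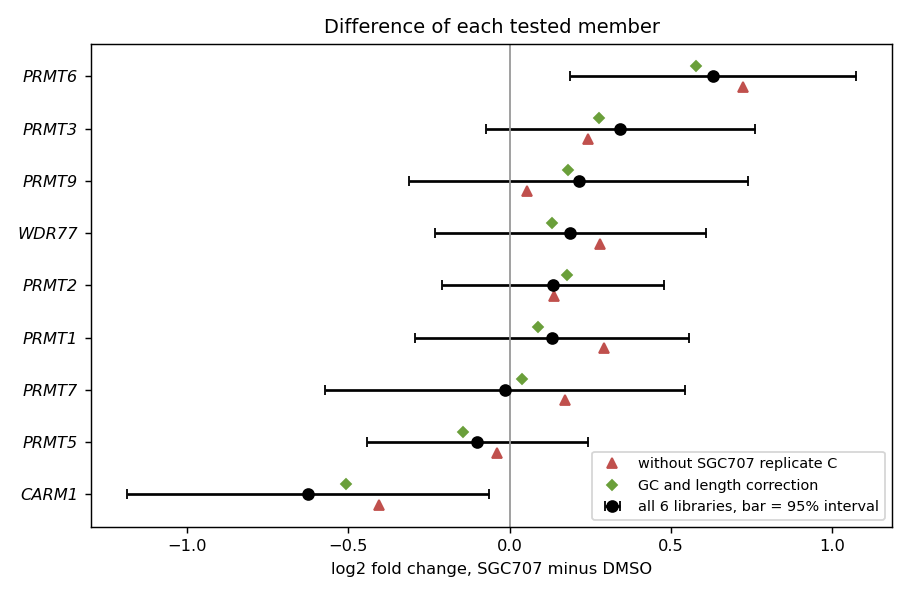
Log2 fold change of the 9 tested members, SGC707 minus DMSO (horizontal axis), from all 6 libraries with its 95% interval (black), without SGC707 replicate C (red triangles) and after a correction for GC content and length (green diamonds). The intervals of PRMT6 (0.19 to 1.07) and CARM1 (-1.19 to -0.06) leave out 0, but neither gene passed after adjustment over all genes.

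The spread among the SGC707 libraries followed the base composition of the members. GC content of the longest protein-coding transcript ran from 41.3% in PRMT9 and 41.7% in PRMT3 to 61.9% in CARM1. On the log2 scale SGC707 C lay above the mean of SGC707 A and B by 0.45 in PRMT9 and 0.27 in PRMT3. It differed from that mean by -0.82 in CARM1, -0.66 in PRMT7 and -0.57 in PRMT1, whose GC contents were 61.9%, 57.4% and 56.8%. Only PRMT9 and PRMT3, the members with the least GC, were higher in SGC707 C than in the mean of A and B, and PRMT2, with 55.8% GC and a value of -0.02, stood off the trend. Across the 9 members Pearson's r was -0.88 and Spearman's coefficient -0.85, as a description of points that all come from the same libraries. Over all 11541 nuclear genes averaging 20 counts or more, Spearman's coefficient was -0.78. The part of base composition in the differences between the groups was addressed only by the fits below.

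The difference between SGC707 C and SGC707 A and B reaches the comparison of the groups. Taking SGC707 A and B alone, the mean log2 level minus that of DMSO was 0.75 for PRMT6, 0.25 for PRMT3, 0.04 for PRMT9 and -0.40 for CARM1. For SGC707 C alone the values were 0.42 for PRMT6, 0.52 for PRMT3, 0.49 for PRMT9 and -1.22 for CARM1. PRMT2 (0.14 in A and B, 0.13 in C) and PRMT5 (-0.03 in A and B, -0.24 in C) also kept their sign, so that 6 of 9 members had the same sign in both. The sign differed in PRMT1 (0.30 in A and B, -0.27 in C), PRMT7 (0.16 in A and B, -0.50 in C) and WDR77 (0.29 in A and B, -0.03 in C). After a correction of each library for GC content and length the log2 fold changes were 0.58 for PRMT6 (edgeR adjusted p = 0.0888), -0.51 for CARM1 (edgeR adjusted p = 0.0602) and 0.28 for PRMT3 (edgeR adjusted p = 0.209). In that fit 0 members passed, where 0.517% of all tested genes were called.

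**Figure D3:**
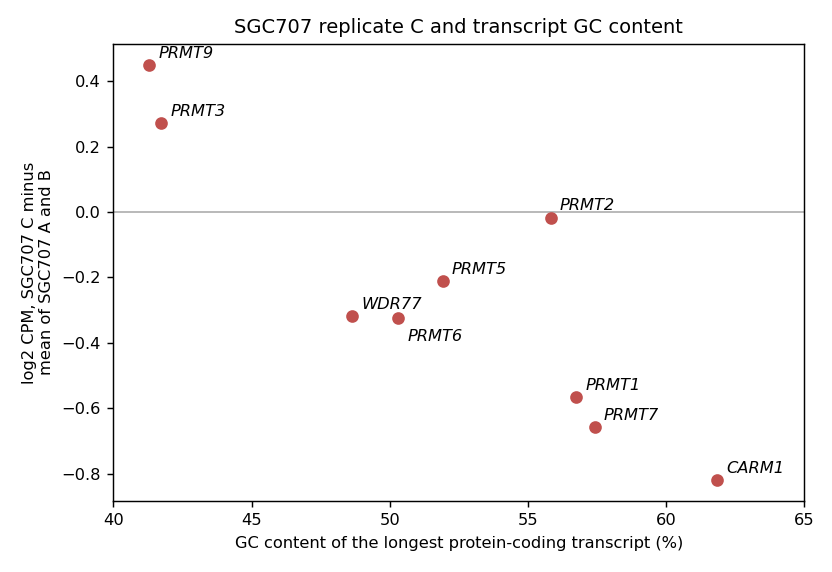
GC content of the longest protein-coding transcript (horizontal axis, percent) and log2 normalised CPM of SGC707 replicate C minus the mean of SGC707 A and B (vertical axis) for the 9 tested members. Points fall from 0.45 in PRMT9 at 41.3% GC to -0.82 in CARM1 at 61.9% GC.

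Levels were set in order per kilobase of the longest protein-coding transcript, as normalised CPM per kilobase averaged over the 6 libraries. PRMT1 was the highest member at 80.02 ± 12.4 (SD, n = 6), above 97.6% of 12112 tested genes. The distance to the next member depends on the length used, since per kilobase of all annotated exons PRMT1 stood at 28.1 and PRMT5 at 17.1. On the longest transcript PRMT5 followed at 23.4 ± 1.99, CARM1 at 17.1 ± 4.999, PRMT6 at 14.2 ± 3.84, PRMT2 at 10.2 ± 0.629 and WDR77 at 10.1 ± 1.32. The lower part of the order was PRMT3 at 6.95 ± 1.11, PRMT7 at 4.16 ± 0.783 and PRMT9 at 3.80 ± 0.695, with PRMT8 at 0 to 0.207. PRMT3 therefore ranked seventh of the 10, near the middle of all tested genes in level (above 53.2% of them).

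Not every step of this order holds between libraries. PRMT1 stood above PRMT5, PRMT5 above CARM1, WDR77 above PRMT3 and PRMT3 above PRMT7 in 6 of 6 libraries each. PRMT2 and WDR77 changed places, with PRMT2 higher in 3 of 6, and PRMT7 was above PRMT9 in 4 of 6. CARM1 and PRMT6 divided by group: PRMT6 was the higher of the pair in 3 of 3 SGC707 libraries and CARM1 in 3 of 3 DMSO libraries. This division depends on the length used. Per kilobase of all annotated exons CARM1 was the higher of the pair also in SGC707 A and B.

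The make-up of the family is the share of each member in the summed level per kilobase of a library. CARM1 made up 8.54%, 7.99% and 6.17% in SGC707 A, B and C, against 13.6%, 13.1% and 10.8% in DMSO A, B and C. PRMT6 made up 9.64%, 9.85% and 10.3% with SGC707, against 5.47%, 6.79% and 7.93% with DMSO. Neither pair of groups overlapped. The mean share of CARM1 differed by -4.95 percentage points and that of PRMT6 by 3.18 points (two-sided exact permutation p = 0.1 for each, the smallest possible, and 0.5 adjusted over the 10 shares). PRMT1 held the largest part throughout, at 44.0% to 50.5% with SGC707 and 45.8% to 46.6% with DMSO. PRMT3 held 3.74%, 3.93% and 6.11% in SGC707 A, B and C and 3.69%, 3.55% and 3.86% in the DMSO libraries, so that its groups overlapped and its value in SGC707 C stood apart. The overlap depends on the length used. Per kilobase of all annotated exons the groups did not overlap (difference 0.918 points, two-sided exact permutation p = 0.1). The summed level of the family was 174 ± 26.9 with SGC707 and 165 ± 7.55 with DMSO (SD, n = 3 each, two-sided exact permutation p = 0.6).

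**Figure D4:**
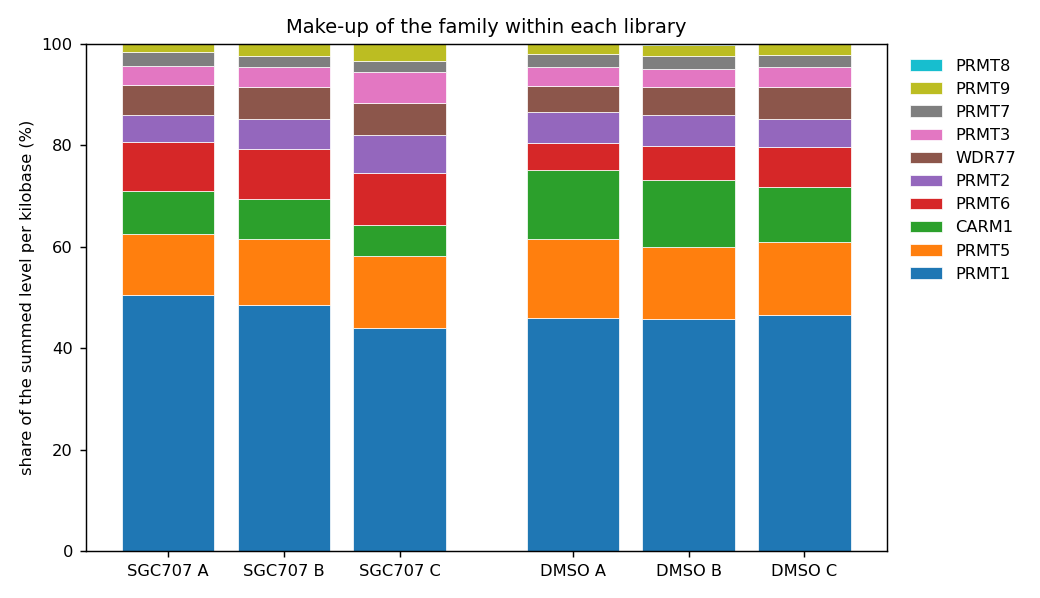
Share of each member (colours) in the summed normalised CPM per kilobase of the family, in percent, for the 3 SGC707 libraries (left) and the 3 DMSO libraries (right). The CARM1 band is 6.17% to 8.54% with SGC707 and 10.8% to 13.6% with DMSO, and the PRMT6 band is 9.64% to 10.3% with SGC707 and 5.47% to 7.93% with DMSO.

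The genes whose levels followed PRMT3 most closely over the 6 libraries were ARHGAP19 (Pearson's r = 0.997), SLC30A1 (0.994) and MED4 (0.992). They were taken from 10166 genes with a mean of at least 5 normalised CPM, leaving out clone-based and LINC symbols. ARHGAP19 encodes a GTPase-activating protein, SLC30A1 a zinc exporter and MED4 a Mediator subunit. These values describe 6 libraries in 2 groups and carry no test. Within the family r with PRMT3 ran from 0.65 in PRMT9 and 0.65 in PRMT2 to -0.91 in CARM1. Of the 10166 genes, 80.4% had a lower r than PRMT9, 80.4% a lower r than PRMT2 and 4.11% a lower r than CARM1.

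Around the family, 8 lists of 63 genes covered its partners and regulators, the supply of methyl groups, clearance and readers of methylarginine, and known substrates. The lists were chosen with earlier results of these data known, so counts of their genes are descriptions only. Of these genes 55 were tested and 0 were called by edgeR in either direction, with 12 (5 higher and 7 lower) at an unadjusted p under 0.05, a level that 12.8% of all tested genes reached. Positive log2 fold changes numbered 26 and negative ones 29, with a median of -0.05, and the groups did not overlap in 12 genes (21.8%, against 20.6% of all tested genes). DESeq2 called 1, EP300, where it called 1.89% of all genes. Without SGC707 C edgeR called 9 of these genes, in a fit where 9.26% of all genes were called. With any other single library left out it called 0 of them.

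Among partners, regulators and other arginine methyltransferases, 4 of 8 tested genes were positive and 4 negative, with a median of -0.03. RIOK1, an adaptor that competes with another PRMT5 adaptor, stood at 62.0, 61.7 and 95.3 normalised CPM in SGC707 A, B and C, against 102, 107 and 93.3 in DMSO A, B and C (log2 fold change -0.47, edgeR adjusted p = 0.389). SGC707 A and B were below all DMSO libraries and SGC707 C was not. Without SGC707 C the value was -0.71 (edgeR adjusted p = 0.0272), in a fit where 9.26% of all genes were called. NDUFAF7, a mitochondrial arginine methyltransferase (log2 fold change 0.23), BTG1, a cofactor of PRMT1 (-0.13), and METTL23, an arginine methyltransferase of another family (0.13), had adjusted p from 0.599 to 0.834. EPB41L3, whose product binds and inhibits PRMT3, had 0 counts in every library.

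In the methyl donor cycle 4 of 9 tested genes were positive and 5 negative, with a median of -0.09. MAT2B, the regulatory subunit of methionine adenosyltransferase, which makes S-adenosylmethionine, stood at 47.8, 45.4 and 49.3 normalised CPM in SGC707 A, B and C and at 26.4, 24.9 and 41.1 in the DMSO libraries. The groups did not overlap (log2 fold change 0.62, edgeR adjusted p = 0.308), and DMSO C lay nearest to the SGC707 libraries. AHCY, which removes S-adenosylhomocysteine, the inhibitory product of methylation (0.41), its relatives AHCYL2 (0.91) and AHCYL1 (-0.36) had adjusted p from 0.558 to 0.589. The methylarginine hydrolases DDAH2 (0.89) and DDAH1 (-0.45) had opposite signs, with adjusted p of 0.317 and 0.428. DDAH2 stood at 26.2, 22.6 and 10.8 normalised CPM in SGC707 A, B and C, against 10.01, 10.3 and 11.8 in DMSO A, B and C, so that SGC707 C lay among the DMSO libraries. Without SGC707 C AHCY (0.65, edgeR adjusted p = 0.0336) and DDAH2 (1.18, edgeR adjusted p = 0.0272) passed. That fit called 9.26% of all genes.

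Of the Tudor-domain readers, which bind methylarginine, 4 of 7 tested genes were positive, with a median of 0.09. SMN2 (log2 fold change 0.48), SND1 (0.27), TDRD3 (-0.25) and TDRD7 (0.12) had edgeR adjusted p from 0.442 to 0.870. Without SGC707 C TDRD3 stood at -0.60 and passed (edgeR adjusted p = 0.0469), in a fit where 9.26% of all genes were called. SMN2 shares nearly all its sequence with SMN1, so its counts are uncertain.

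The substrates of PRMT3 itself were RPS2 and PABPN1, the nuclear poly(A)-binding protein. RPS2 stood at 547, 499 and 372 normalised CPM in SGC707 A, B and C, against 303, 319 and 419 in the DMSO libraries. The groups overlapped through SGC707 C and DMSO C, and the log2 fold change was 0.45 (SE 0.20, edgeR adjusted p = 0.404). For PABPN1 the log2 fold change stood at 0.14 (edgeR adjusted p = 0.733). RPS2 has many processed pseudogenes that can share its reads.

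Among substrates of PRMT1, 7 of 13 were positive and 6 negative, with a median of 0.11. The RNA-binding protein genes HNRNPA1 (log2 fold change 0.58), HNRNPK (0.36) and KHDRBS1 (0.36) had SGC707 libraries all above the DMSO libraries, with edgeR adjusted p of 0.262, 0.309 and 0.372. FOXO1, a transcription factor gene, was separate in the other direction (-0.46, edgeR adjusted p = 0.681). With it, 4 of 13 genes were separate, beside 20.6% of all tested genes. FOXO1 rested on few reads, 10 to 14 counts per SGC707 library and 9 to 18 per DMSO library. Its levels were 0.779 to 0.846 normalised CPM with SGC707 and 0.858 to 1.62 with DMSO, so the groups barely stood apart. Only DMSO C, at 1.62, lay clearly higher, so FOXO1 adds little to that count. The elongation factor gene SUPT5H stood at -0.51 (edgeR adjusted p = 0.350). Substrates of PRMT5 are spliceosomal Sm and Sm-like proteins and the Cajal body protein coilin. Of these 3 were positive and 2 negative, with a median of 0.30, led by SNRPB (0.52) and LSM4 (0.55), followed by SNRPD3 (0.30) and SNRPD1 (-0.12), with edgeR adjusted p from 0.431 to 0.804. Without SGC707 C SNRPB (0.74, edgeR adjusted p = 0.0331) and LSM4 (0.84, edgeR adjusted p = 0.0293) passed. That fit called 9.26% of all genes.

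Among substrates of CARM1, 8 of 9 were negative and 1 positive, with a median log2 fold change of -0.55, beside 0.02 over all tested genes. EP300, a histone acetyltransferase and coactivator, stood at 67.2, 69.7 and 82.8 normalised CPM in SGC707 A, B and C, against 158, 174 and 102 in DMSO A, B and C. Its groups did not overlap, and DMSO C was the lowest DMSO library. The log2 fold change was -0.98 (SE 0.22, edgeR adjusted p = 0.202). CREBBP, the close relative of EP300, stood at 94.1, 90.2 and 86.8 with SGC707 and at 117, 157 and 124 with DMSO (log2 fold change -0.55, edgeR adjusted p = 0.263). The Mediator gene MED12 (-0.62, edgeR adjusted p = 0.266) and the neuronal RNA-binding protein gene ELAVL4 (-0.80, edgeR adjusted p = 0.262) were also separate between the groups, as was ELAVL1 (-0.27, edgeR adjusted p = 0.421). That makes 5 of 9 genes, all lower, where 9.78% of all tested genes were separate and lower. The list was chosen with earlier results of these data known, so this count is a description and was not tested. With edgeR on all 6 libraries 0 of the 9 passed over all genes, and EP300 passed with DESeq2 (log2 fold change -0.99, adjusted p = 0.00763). In edgeR EP300 and ELAVL4 were among those that passed without SGC707 C (edgeR adjusted p = 0.0450 and 0.0298). That fit called 9.26% of all genes.

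**Figure D5:**
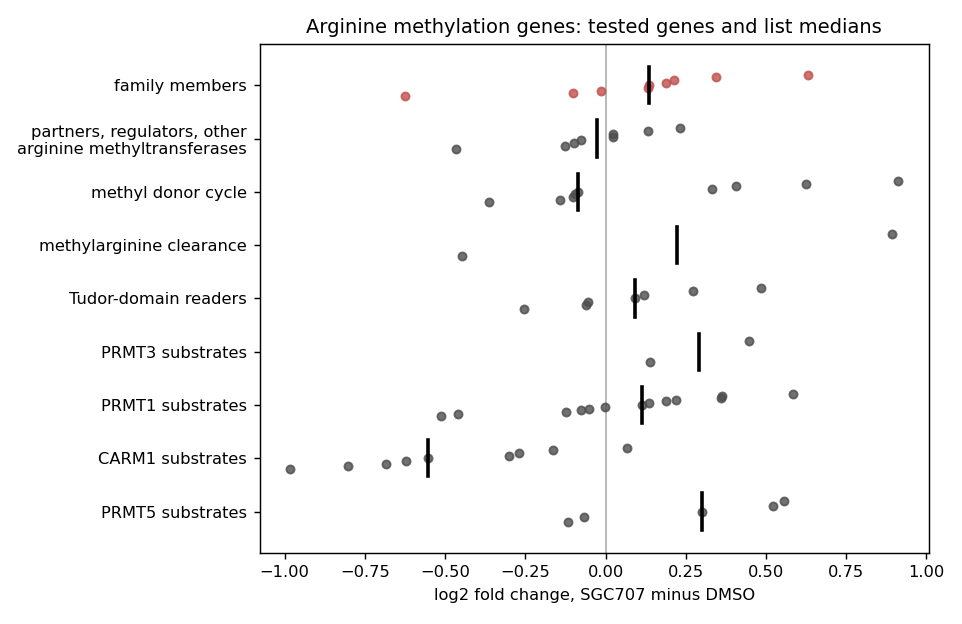
Log2 fold change, SGC707 minus DMSO (horizontal axis), of each tested gene (points) in the family (red) and the 8 related lists (grey), with the median of each list as a black bar. The medians run from -0.55 for CARM1 substrates to 0.30 for PRMT5 substrates, and 0 of these genes passed the test over all genes.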

How the data were processed

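RNA sequencing measured transcripts in 3 SGC707 and 3 DMSO libraries of SH-SY5Y cells, grouped by the treatment label. The authors deposited read counts as whole numbers for each gene symbol, without scaling between libraries. HISAT2, StringTie and GRCh38 are named per the submitters' processing notes. No version, annotation, strand setting or rule for shared reads is known from these notes. Total counts were 11658728 to 15437602 per library, and a floor of 3 counts covers counting error only.

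Differences in counts were fitted by edgeR 4.0.16 under R 4.3.3 (filterByExpr, TMM, robust glmQLFit, glmQLFTest, no covariate), with Benjamini-Hochberg adjustment over all 12196 tested genes and a threshold of 0.05. A standard error is the log2 fold change over the root of its F statistic. Shares and ratios used two-sided exact permutation tests. Gene models, lengths and sequences came from GENCODE release 29: 19294 symbols matched directly, 296 through synonyms and 20 did not. Alternatives were RLE factors, library totals, no filter, one stricter filter (mean count 50 and 1 CPM in 3 libraries), DESeq2 1.42.0, limma-voom (limma 3.58.1), each library left out, the replicate letter as a block, no mitochondrial genes, a lowess correction (span 0.3) for GC content and length, and exon length.

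Members and lists were chosen with earlier results of these data known. Named genes are all members, the 4 genes of each list with the smallest p and any past the threshold, and the 3 closest to PRMT3. ELAVL1, FOXO1, the overlapping genes and the markers were named outside this rule, after their values were seen. The procedure was tested on simulated data. Figures were drawn with matplotlib 3.10.9.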

Additional observations from a re-analysis of the deposited data

How the results depend on the processing

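Taking each of the 9 tested members in each alternative fit, direction and side of the threshold were kept in 132 of 144 values. The fits reuse the same 6 libraries and most called few genes of any kind, so this count is a description only. With scaling by library totals alone, which put the median log2 fold change over all genes at 0.69, PRMT2 (0.81), PRMT3 (0.99) and PRMT6 (1.30) passed, and CARM1 (0.10), PRMT5 (0.57) and PRMT7 (0.69) turned positive. That fit called 21.4% of all tested genes, 2574 of the 2605 higher. PRMT6 also passed without SGC707 C (0.73), in a fit where 9.26% of all genes were called. Its values without 1 library ran from 0.52 to 0.78. PRMT7 turned positive after the GC and length correction (0.0383), also with the replicate block (0.0329), and ran from -0.25 to 0.17 without 1 library. The difference in family share turned negative for PRMT2 (-0.217 points) and PRMT9 (-0.183 points) without SGC707 C, ranging up to 0.765 and 0.755, and that of PRMT8 ran from -0.0567 to 0.00917, positive without DMSO B. The causes were not tested.

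The count of called genes, 3 on all libraries (1 higher, 2 lower), was 2605 (2574 and 31) with library totals, 6 with no filter (5 lower), 288 (47 and 241) with DESeq2, 63 (9 and 54) after the correction, and 0 higher with limma-voom. Leaving out 1 library gave 0 to 1147 called, 0 to 462 higher and 0 to 685 lower, with 0 without DMSO A (769 at an unadjusted p under 0.05), without DMSO B (703) or without SGC707 B (967), 5 without DMSO C, 9 (5 and 4) without SGC707 A and 1147 without SGC707 C. Called members numbered 3 with library totals and 0 to 1 without 1 library, and called related genes 18 with library totals, 1 with DESeq2 and 0 to 9 without 1 library. Of all genes, 21.4% were called with library totals, 1.89% with DESeq2 and 9.26% without SGC707 C, the fit with 1 member and 9 related genes.

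The replicate letters are shared by the groups but nothing says that they pair libraries: same-letter deviations correlated at 0.0795, -0.0228 and 0.0998, and SGC707 B was closer to DMSO A. With the replicate block 0 genes were called (1534 at an unadjusted p under 0.05), 0 higher and 0 lower, and with the block and the correction 2, of which 1 lower; 0 members were called in either. Per kilobase of all annotated exons, levels were 28.1 for PRMT1, 17.1 for PRMT5, 12.7 for CARM1, 9.27 for WDR77, 8.55 for PRMT6, 3.66 for PRMT2, 3.37 for PRMT3, 3.34 for PRMT9 and 1.86 for PRMT7, which puts WDR77 above PRMT6 and PRMT2, and PRMT9 above PRMT7. On that length CARM1 also stood above PRMT6 in SGC707 A and B.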
